A study of Mus musculus with 30 samples.

Results

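Whole-brain RNA of adult wildtype male mice that had received fluoxetine as pups (WT-Flx) was compared with that of wildtype males whose dams had received vehicle (WT-Veh). The comparison held 9 of the 30 libraries of the series, 5 of WT-Flx and 4 of WT-Veh (replicates 1, 3, 4 and 5), each from 1 mouse collected at postnatal day (P) 120. All mice were C57BL/6N and carried 2 intact copies of *Arid1b* by their label, and the heterozygous (HT) mice of the same study entered a single test, described last. Dams of WT-Flx pups drank 0.1 mg/ml fluoxetine hydrochloride in 0.2% saccharin water from P3 to P21, dams of WT-Veh pups drank saccharin water alone, and every mouse had plain water after weaning at P21. The drug therefore reached the pups through milk, the dose per pup was not measured, and the mice were drug-free for months before collection. The labels name no litter, so p-values here measure the spread between mice and cannot separate it from a spread between litters.

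Fluoxetine blocks the serotonin transporter, which clears serotonin from the extracellular space. Serotonin is made by raphe neurons of the hindbrain through tryptophan hydroxylase 2 (*Tph2*), is packed into vesicles by the monoamine carrier *Slc18a2*, acts on a family of *Htr* receptors across the brain, and is broken down by monoamine oxidases. The early postnatal weeks are a time when serotonin shapes the wiring of cortex and other regions. The comparison asks which transcripts of the adult brain differ, long after the drug was stopped, when the *Arid1b* gene is intact.

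No gene passed the threshold of an adjusted p under 0.05 in either direction. Of the 17872 genes with a mean of at least 10 normalized counts, 0 were called higher and 0 lower in WT-Flx by limma (0% of the genes tested in each direction), and the smallest adjusted p was 0.196. At an unadjusted p under 0.05, 1575 genes were higher (8.81%) and 2212 lower (12.4%). The values of the 2 groups did not overlap for 457 genes higher in WT-Flx (2.56%) and 775 genes lower in WT-Flx (4.34%). Differences were small throughout, with a median absolute log2 difference of 0.18 and 129 genes that differed by over 1 on the log2 scale. The 95% interval of the difference had a median half-width of 0.29, and for 15688 genes (87.8%) it lay within 1 on the log2 scale on either side of 0, so a doubling or halving was outside the interval for most genes.

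Before single genes are described, 3 properties set some libraries apart. The first is *Arid1b*, which had 3392, 3305, 3166, 2961 and 2963 normalized counts in WT-Flx replicates 1 to 5 and 3171, 3036, 3224 and 3229 in WT-Veh replicates 1, 3, 4 and 5. Both groups thus overlapped at the wildtype level, with a log2 difference of -0.01 ± 0.07 (SE). The library labelled WT-Veh replicate 2 had 2320, below all 9, and was left out. With it included, 0 genes passed by limma, 4504 had an unadjusted p under 0.05 and the smallest adjusted p was 0.0849.

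The second property is the slope of each library on gene GC content, meaning the change in a library's log2 deviation from the mean of the 9 libraries for each 10% of GC in the transcript. It was -0.08, -0.17, -0.17, -0.10 and -0.07 in WT-Flx replicates 1 to 5 and -0.02, 0.45, 0.18 and -0.02 in WT-Veh replicates 1, 3, 4 and 5. All 5 WT-Flx libraries lay below all 4 WT-Veh libraries, although WT-Veh replicates 1 and 5 were close to them and WT-Veh replicates 3 and 4 far above. The difference of -0.26 had a two-sided exact permutation p of 0.0159, the smallest that groups of 5 and 4 allow. The group difference of genes by GC content restates this slope and adds no evidence, because both come from the same values. Genes under 40% GC had a median log2 difference of 0.35, genes between 50% and 55% GC a median of -0.07 and genes over 60% GC a median of -0.28. Across genes, which are not independent replicates, the correlation of the log2 difference with GC content was -0.54.

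**Figure D1:**
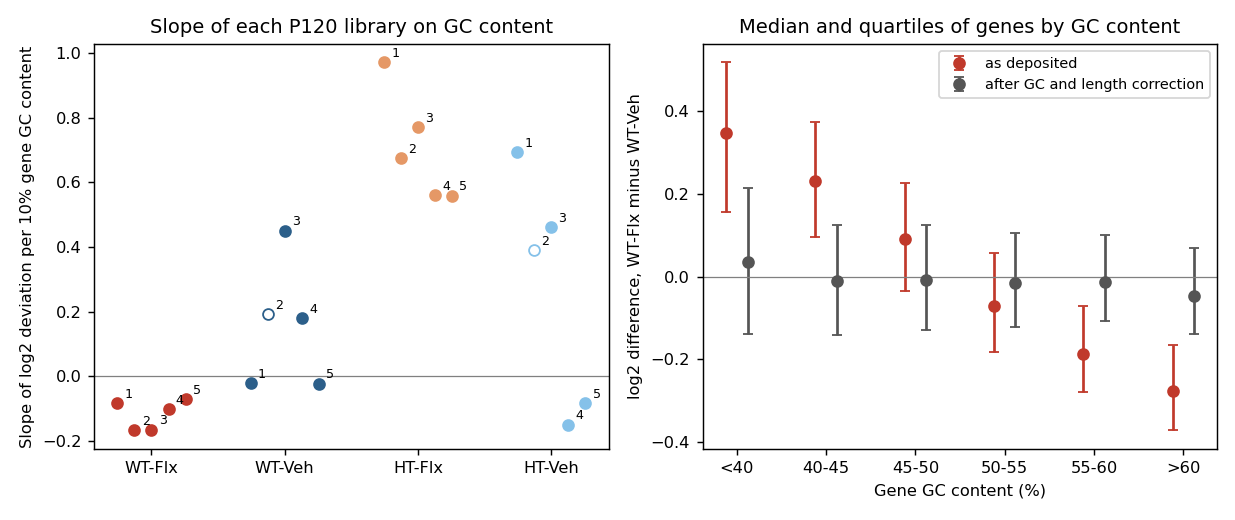
Left, the slope of each P120 library on gene GC content (log2 deviation from the mean of the 9 compared libraries per 10% GC), with points numbered by replicate and the left-out vehicle libraries drawn open. Right, the median (points) and quartiles (bars) of the log2 difference between WT-Flx and WT-Veh in 6 ranges of gene GC content, as deposited and after the GC and length correction. The 5 WT-Flx slopes lie between -0.17 and -0.07, below every WT-Veh slope, and the medians run from 0.35 under 40% GC to -0.28 over 60% GC before the correction and from 0.04 to -0.05 after it.

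For this reason differences below are also given after a correction in which the mean deviation of each library was subtracted in 100 bins of GC content and transcript length. The correction took away any part of a fluoxetine response that follows GC content together with any technical slope, and these cannot be told apart. After it, 0 of 17872 genes passed by limma (0%), the smallest adjusted p was 0.516, and 747 genes were higher (4.18%) and 943 lower (5.28%) at an unadjusted p under 0.05. The groups then did not overlap for 488 genes (2.73%). A total of 1034 genes had an unadjusted p under 0.05 and the same direction both ways, 486 of them higher and 548 lower in WT-Flx.

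The third property is the level of brain region markers. Summed values of 20 cerebellar neuron markers were 90168, 36630, 88821, 129122 and 40450 normalized counts in WT-Flx replicates 1 to 5 and 46821, 111671, 118077 and 107953 in WT-Veh replicates 1, 3, 4 and 5. WT-Flx replicates 2 and 5 and WT-Veh replicate 1 were the low libraries, and the highest library was 3.53 times the lowest. *Car8*, a Purkinje cell protein, had 6203, 609, 6304, 11254 and 1180 in WT-Flx and 1759, 8424, 10104 and 9019 in WT-Veh, so the same 3 libraries were low. In whole-tissue RNA, a smaller share of cerebellar cells and less RNA per such cell cannot be told apart. Striatal projection neuron markers summed to 41071, 43242, 37710, 24650 and 55526 in WT-Flx and 39285, 31791, 26379 and 29983 in WT-Veh, with WT-Flx replicate 4 lowest and WT-Flx replicate 5 highest. Both sets of markers overlapped between the groups. Summed values of the other cell classes checked (glutamatergic and GABAergic neurons, oligodendrocytes and their precursors, astrocytes, microglia, endothelium, pericytes, choroid plexus, ependyma and red blood cells) spanned at most 1.48 times from lowest to highest over the 9 libraries, and those of hypothalamic neuropeptides 1.65 times. The most abundant markers of the non-neural sources had overlapping groups. They were *Ttr*, *Enpp2* and *Kl* for choroid plexus (log2 differences of 0.08, 0.20 and -0.17) and *Hbb-bs* and *Hba-a2* for red blood cells (-0.15 and -0.29). The pituitary markers were *Chga*, which neurons also express, *Gh* and *Pomc* (-0.16, 0.71 and 0.43), and growth hormone (*Gh*) ranged from 1.03 to 1379 in WT-Flx and from 0 to 599.6 in WT-Veh.

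**Figure D2:**
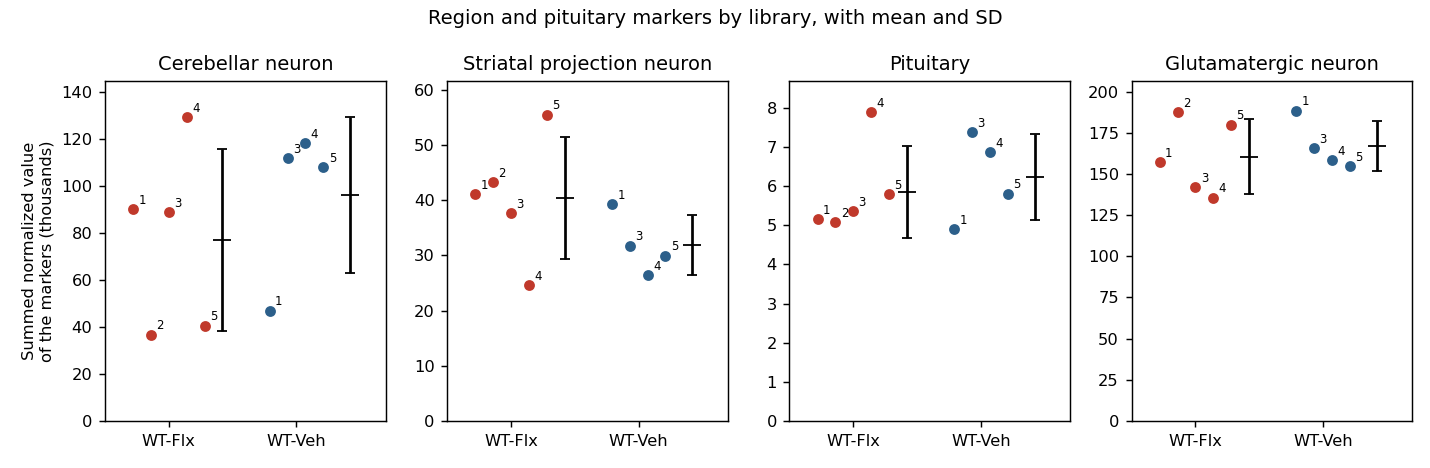
Summed normalized values of marker lists in each of the 9 libraries, numbered by replicate, with the mean and SD of each group beside the points. Cerebellar markers separate WT-Flx replicates 2 and 5 and WT-Veh replicate 1 (36630 to 46821) from the other 6 libraries, whereas glutamatergic neuron markers lie between 135610 and 188522 in all 9.

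No gene of the serotonin system passed the threshold, and the genes of serotonergic neurons varied most between libraries of low and high cerebellar markers, in both groups. *Tph2* had 257, 68.8, 289.7, 439.9 and 63.3 normalized counts in WT-Flx and 71.5, 271, 341 and 308 in WT-Veh. The serotonin transporter *Slc6a4*, the target of fluoxetine, had 251, 34.1, 218, 325 and 37.1 in WT-Flx and 56.1, 329, 393 and 239.5 in WT-Veh. For both genes the 3 low libraries were those with low cerebellar markers, and the groups overlapped. The log2 difference was -0.32 ± 0.63 for *Tph2* (adjusted p = 0.783) and -0.79 ± 0.77 for *Slc6a4* (adjusted p = 0.549), and -0.49 and -0.70 after the correction. Before it, their intervals, from -1.70 to 1.07 and from -2.48 to 0.91, left room for large differences in either direction. *Lmx1b*, a transcription factor of serotonergic neurons, and *En2*, one of the midbrain and hindbrain, were lowest in the same 3 libraries. *Lmx1b* had 85.7, 33.2, 61.3, 145 and 35.0 in WT-Flx and 60.7, 109.8, 138 and 199 in WT-Veh, so WT-Veh replicate 1 was close to WT-Flx replicate 3. *Gata3*, also listed for serotonergic neurons, did not share the pattern in full. It had 38.66, 44.43, 79.06, 118.19 and 14.95 in WT-Flx and 18.96, 87.9, 126.99 and 105.73 in WT-Veh, with WT-Flx replicate 1 below WT-Flx replicate 2.

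Of the 7 synthesis and cofactor genes, 0 were higher and 1 was lower at an unadjusted p under 0.05, against 8.81% and 12.4% of all genes. The lower gene was sepiapterin reductase (*Spr*), which makes the cofactor tetrahydrobiopterin, with 997, 928, 1015, 1111 and 964 in WT-Flx and 1023, 1385, 1395 and 1153 in WT-Veh. Its log2 difference was -0.30 ± 0.10 (adjusted p = 0.203), and -0.08 after the correction. The other 6 genes (*Tph1*, *Tph2*, *Ddc*, *Gch1*, *Pts* and *Qdpr*) differed by -0.55 to 0.12 on the log2 scale.

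Of the 7 transport and breakdown genes, 1 was higher and 1 lower at that level. Monoamine oxidase B (*Maob*) had 798, 830.0, 818, 762 and 886 in WT-Flx and 782, 708, 637 and 667 in WT-Veh. Only 1 vehicle library reached the fluoxetine range, and the log2 difference was 0.23 ± 0.08 (adjusted p = 0.205), but 0.06 after the correction. The low-affinity monoamine carrier *Slc29a4* had 826, 756, 1030, 1214 and 759 in WT-Flx and 1041, 1506, 1347 and 1038 in WT-Veh, a log2 difference of -0.43 ± 0.16 (adjusted p = 0.206), and -0.21 after the correction. With the cerebellar marker level of each library as a covariate, a fit chosen after these values were seen, the difference of *Slc29a4* was -0.29. *Maoa*, *Slc18a2*, *Slc22a3* and *Aanat* differed by 0.03 to 0.40, but *Maoa* and *Slc18a2* had the other sign after the correction (-0.16 and -0.20).

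Of the 14 serotonin receptor genes listed, 12 passed the filter on low values, and 2 of these were higher and 0 lower in WT-Flx at an unadjusted p under 0.05, beside 8.81% and 12.4% of all genes. After the correction 1 was higher and 0 lower, beside 4.18% and 5.28%. Their median log2 difference was 0.15 and 0.13 after the correction, beside -0.01 for all genes. *Htr1d*, a Gi-coupled receptor found on nerve terminals, had 125, 127, 91.0, 74.6 and 139 in WT-Flx and 94.0, 70.5, 81.5 and 55.2 in WT-Veh. The groups overlapped at WT-Flx replicates 3 and 4, and the log2 difference was 0.55 ± 0.22 (adjusted p = 0.213) and 0.57 after the correction. The left-out WT-Veh replicate 2 had 134, within the fluoxetine range, and with it included the difference of *Htr1d* was 0.37. With the cerebellar marker level as a covariate it was 0.38. *Htr2a*, the Gq-coupled receptor of cortical pyramidal neurons, had 699, 821, 703, 467 and 1134 in WT-Flx and 704, 271, 429 and 551 in WT-Veh. Its log2 difference of 0.67 ± 0.28 (adjusted p = 0.222) was 0.32 after the correction and 0.24 against WT-Veh replicates 1 and 5 alone. *Htr1a*, the autoreceptor of raphe neurons that is also abundant in hippocampus, had 473, 615, 534, 518 and 472 in WT-Flx and 571, 584, 582 and 567 in WT-Veh, a log2 difference of -0.15 ± 0.09 (adjusted p = 0.359) and -0.16 after the correction. The other 9 receptor genes differed by -0.12 (*Htr6*) to 0.68 (*Htr1f*), and *Htr2c*, *Htr3a*, *Htr5a*, *Htr5b* and *Htr6* changed sign with the correction.

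**Figure D3:**
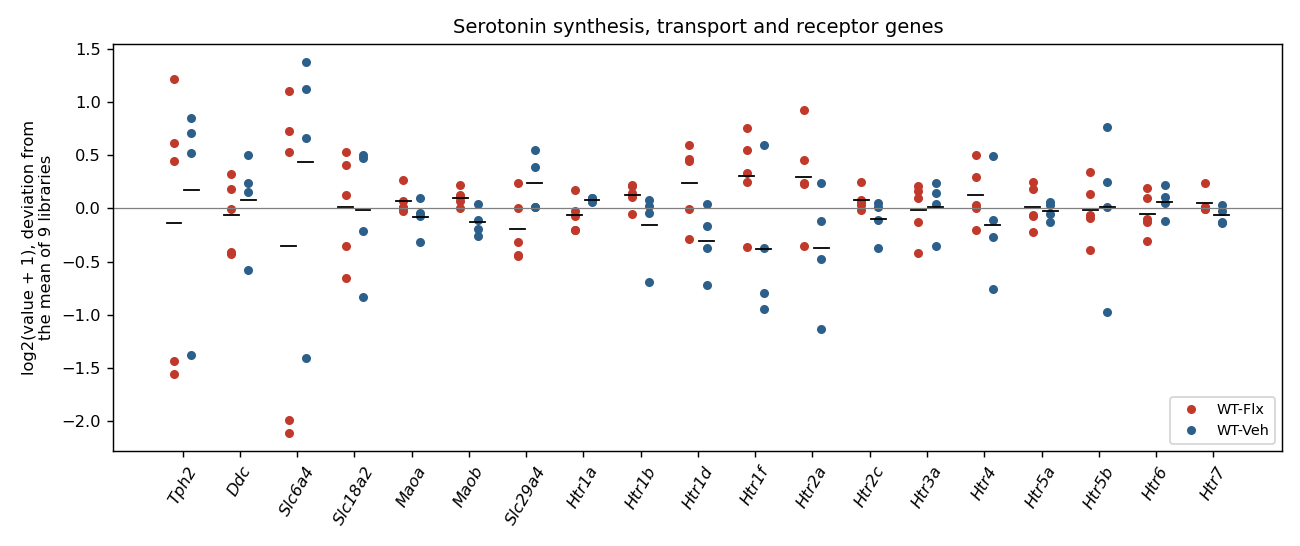
Deviation of each library from the mean of the 9 libraries, on the log2(value + 1) scale, for genes of serotonin synthesis, transport, breakdown and reception, with black bars at the group means. The groups overlap for every gene shown, and the low points of *Tph2* and *Slc6a4* are WT-Flx replicates 2 and 5 and WT-Veh replicate 1.

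The genes that separated the groups best were chosen after their values were seen, so they are described with no claim beyond their values. With a mean of at least 50 normalized counts, 209 genes (1.17% of those tested) had groups that did not overlap and an unadjusted p under 0.05 in the same direction both before and after the correction. Of these, 78 were higher and 131 lower in WT-Flx, and the median GC content of the higher ones was 47.1%, below the 50.7% of all genes tested, while that of the lower ones was above it. None of the 209 passed the adjusted threshold.

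Among the lower genes the smallest p belonged to *Hspa1a*, which encodes the inducible chaperone HSP70 (GRCm38 chr17:34969190-34972156, minus strand). It had 1331, 889.5, 912, 1184 and 917 normalized counts in WT-Flx and 1501, 2211, 1980 and 1868 in WT-Veh. Every WT-Flx library was below every WT-Veh library, and the log2 difference was -0.86 ± 0.15, or 0.552 times the vehicle level (unadjusted p = 1.0e-04, adjusted p = 0.196 by limma). It was -0.58 ± 0.11 after the correction, -0.70 against WT-Veh replicates 1 and 5 alone, and between -0.96 and -0.78 when each library was left out in turn. Its neighbour *Hspa1b* (chr17:34956436-34959238, minus strand) encodes a nearly identical protein, and reads of one can be assigned to the other, so their separate values are uncertain. *Hspa1b* had 2164, 1465, 1165, 1371 and 1038 in WT-Flx and 1761, 2583, 2610 and 2978 in WT-Veh, a log2 difference of -0.81 ± 0.21 (adjusted p = 0.196) and -0.61 after the correction. Here WT-Flx replicate 1 lay above WT-Veh replicate 1. The sum of both genes was 3495, 2354, 2078, 2555 and 1955 in WT-Flx and 3262, 4794, 4590.3 and 4845 in WT-Veh, so WT-Flx replicate 1 and WT-Veh replicate 1 alone overlapped.

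The promoters of this pair are shown because the genes are near copies with differences of like size. Each RefSeq window (GRCm38.p6, 250 bases before to 50 after the start of transcription) is written 5′ to 3′ on the minus strand, from chr17:34972107-34972406 for *Hspa1a* and chr17:34959189-34959488 for *Hspa1b*. Capitals mark a match to the heat shock element core, searched as GAANNTTC or TTCNNGAA on both strands, on which each pattern reads the same.
Hspa1a: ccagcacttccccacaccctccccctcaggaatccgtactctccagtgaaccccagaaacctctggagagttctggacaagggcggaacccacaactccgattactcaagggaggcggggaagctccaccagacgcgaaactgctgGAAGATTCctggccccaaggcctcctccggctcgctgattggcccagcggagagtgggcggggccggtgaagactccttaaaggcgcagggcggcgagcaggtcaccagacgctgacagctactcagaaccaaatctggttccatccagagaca
Hspa1b: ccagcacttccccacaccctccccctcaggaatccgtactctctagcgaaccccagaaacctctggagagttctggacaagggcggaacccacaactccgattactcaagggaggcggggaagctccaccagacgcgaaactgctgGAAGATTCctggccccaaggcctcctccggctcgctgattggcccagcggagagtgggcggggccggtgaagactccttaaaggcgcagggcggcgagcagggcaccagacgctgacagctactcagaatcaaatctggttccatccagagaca
The windows were identical at 296 of 300 positions (98.7%), and each held 1 match, which began 104 bases before the start. Of the 27025 genes with a window, 17.0% had a match in at least 1 window. Of the 21 inducible heat shock genes listed, 16 had a window and 11 of these held a match.

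Other inducible chaperones were split. Of the 19 listed besides this pair, 2 were higher and 4 lower at an unadjusted p under 0.05 (8.81% and 12.4% of all genes), and 1 and 3 after the correction (4.18% and 5.28%). The HSP70 partner *Dnajb1* had 1780.5, 1752, 1793, 2029 and 1872 in WT-Flx and 2116, 2088, 2424 and 2183 in WT-Veh, groups that did not overlap, with a log2 difference of -0.25 ± 0.07 (adjusted p = 0.196) and -0.19 after the correction. The small chaperone *Hspb1* had 455, 316, 327, 414 and 324 in WT-Flx and 343, 672, 605 and 688 in WT-Veh, a difference of -0.61 ± 0.20 that was -0.46 after the correction and -0.42 against WT-Veh replicates 1 and 5 alone. *Hsp90aa1*, which encodes the inducible form of HSP90, went the other way, with 28081, 31197, 30861, 32698 and 31336 in WT-Flx and 26019, 12651, 24214 and 30216 in WT-Veh. Its log2 difference was 0.48 ± 0.20 (adjusted p = 0.224) and 0.41 after the correction, and WT-Veh replicate 3 was its lowest library. The median of all 21 genes was -0.10, -0.13 after the correction and -0.01 against WT-Veh replicates 1 and 5 alone.

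The next lower genes were *Hectd3*, *Rusc2*, *Frs3*, *Fgfr3* and *Cacna1g*, with log2 differences of -0.45 ± 0.08, -0.46 ± 0.09, -0.50 ± 0.10, -0.45 ± 0.09 and -0.46 ± 0.10. All had an adjusted p of 0.196 and a GC content between 55.2% and 62.3%, and after the correction their differences were -0.28, -0.26, -0.28, -0.23 and -0.29. *Cacna1g*, the T-type calcium channel of thalamic and cerebellar neurons, had 6965, 5274, 6008, 6996 and 6086 in WT-Flx and 7657, 9441, 8755 and 8575 in WT-Veh. *Fgfr3*, a fibroblast growth factor receptor of astrocytes, had 6246, 5207, 5012, 6450 and 5813 in WT-Flx and 7285, 8475, 8214 and 7315 in WT-Veh. *Frs3*, an adaptor of these receptors, had 791, 654, 759, 775 and 758 in WT-Flx and 1033, 1088, 1212 and 910.4 in WT-Veh. In all 5 genes WT-Veh replicate 3 or 4 was the highest library, and the gap between the groups was smaller against WT-Veh replicates 1 and 5 alone, where the 5 differences lay between -0.38 and -0.31.

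Among the higher genes the smallest p belonged to *Dnah3*, an axonemal dynein heavy chain of motile cilia, with 66.0, 79.5, 86.8, 68.6 and 81.8 normalized counts in WT-Flx and 37.1, 32.5, 41.6 and 25.4 in WT-Veh. Every WT-Flx library was at least 1.5 times every WT-Veh library, and the log2 difference was 1.16 ± 0.18 (adjusted p = 0.196), 1.06 after the correction and 1.28 against WT-Veh replicates 1 and 5 alone. The left-out WT-Veh replicate 2 had 58.7. Motile cilia genes as a list did not share this size, with a median of 0.21 and 3 of 33 higher and 0 lower at an unadjusted p under 0.05, near the 8.81% of all genes that were higher. After the correction the median was 0.16 with 1 higher. *Cep112*, a centrosomal protein gene, had 93.0, 92.5, 85.6, 71.7 and 85.3 in WT-Flx and 56.4, 32.8, 31.7 and 56.7 in WT-Veh, a log2 difference of 0.98 ± 0.21, 0.84 after the correction and 0.58 against WT-Veh replicates 1 and 5 alone. *St6galnac3*, a sialyltransferase gene, had 532, 489, 591, 633 and 619.9 in WT-Flx and 466, 317, 322 and 426 in WT-Veh, a difference of 0.60 ± 0.14 and 0.52 after the correction. *Slit2*, a secreted axon guidance ligand of Robo receptors, had 1261, 1273, 1363, 1250 and 1101 in WT-Flx and 969, 805, 1002 and 1012 in WT-Veh, a difference of 0.40 ± 0.09 and 0.30 after the correction. The remaining genes were *2810429I04Rik* and *Gm2237*, with differences of 0.69 and 0.72 that were 0.51 and 0.43 after the correction. For all 12 genes the direction held when each library was left out in turn. That outcome was fixed beforehand, because the genes were chosen for groups that did not overlap.

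**Figure D4:**
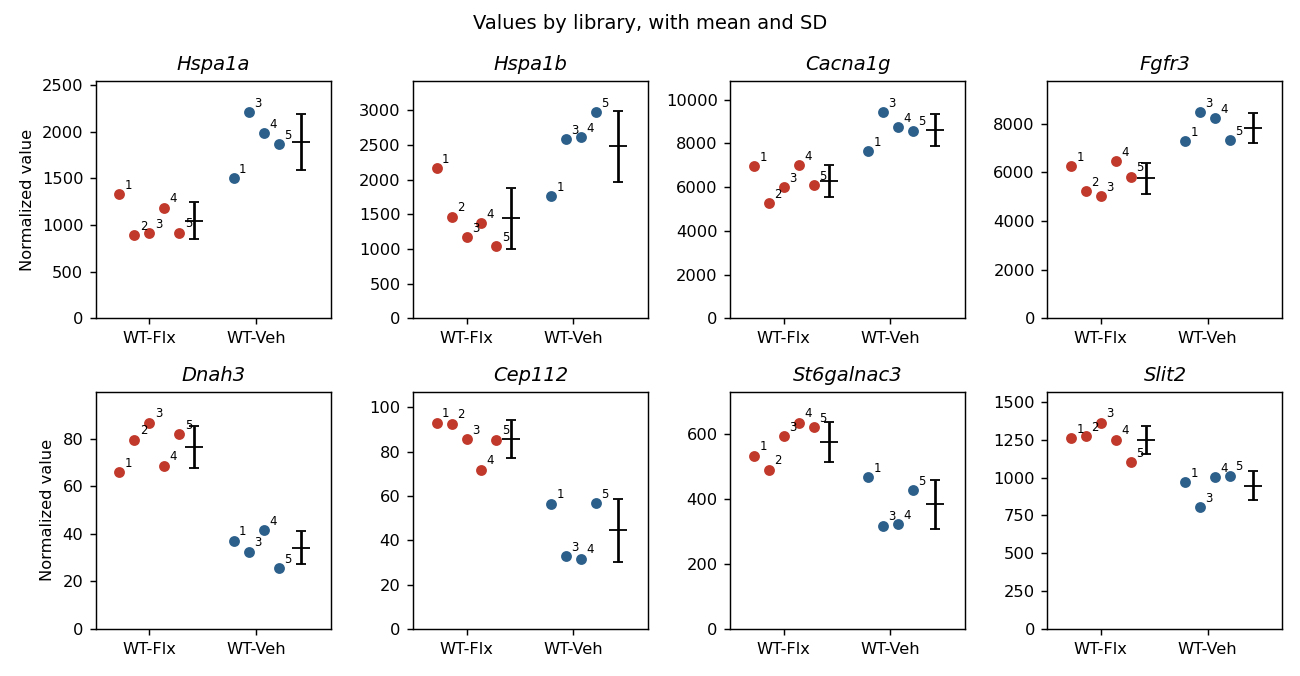
Normalized values of 8 genes in each library, numbered by replicate, with the mean and SD of each group beside the points. WT-Flx lies below WT-Veh for *Hspa1a*, *Cacna1g* and *Fgfr3* and above it for *Dnah3*, *Cep112*, *St6galnac3* and *Slit2* with no overlap, and the groups overlap for *Hspa1b*.

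*Hdac4*, *Mef2a* and *Arc* were taken from the study, which used these libraries, so they are not independent evidence of a direction. *Arc*, an activity-regulated synaptic gene, had 4738, 7437, 5604, 5982 and 4848 in WT-Flx and 8054, 9616, 7268 and 6213 in WT-Veh, a log2 difference of -0.45 ± 0.15 (adjusted p = 0.196) that was -0.17 after the correction. *Hdac4*, a class IIa histone deacetylase, had 3042, 2345, 2344, 2035 and 2103 in WT-Flx and 2234, 2810, 2921 and 2883 in WT-Veh, a difference of -0.20 ± 0.12 (adjusted p = 0.348) and -0.01 after the correction. The transcription factor *Mef2a* differed by 0.32 ± 0.14 (adjusted p = 0.223) and 0.15 after the correction. *Hdac5*, another class IIa deacetylase with 61.4% GC that was chosen after its values were seen, had 8228, 7945, 7348, 8588 and 8337 in WT-Flx and 9662, 12716, 11531 and 9860 in WT-Veh. Its groups did not overlap, and the difference of -0.43 ± 0.09 (adjusted p = 0.196) was -0.15 after the correction.

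Immediate early genes, which neurons switch on with activity, had a negative median difference before and after the correction. Of 26 tested, 1 was higher and 10 were lower at an unadjusted p under 0.05 (12.4% of all genes were lower), with a median log2 difference of -0.27. After the correction 0 were higher and 2 lower (5.28% of all genes), with a median of -0.14. Against WT-Veh replicates 1 and 5 alone, 0 were higher and 3 lower (1.73% and 2.83% of all genes), with a median of -0.14. The pseudokinase gene *Trib1* had 634, 647, 637, 689.9 and 644 in WT-Flx and 754, 1025, 895 and 853 in WT-Veh, with no overlap, a difference of -0.43 ± 0.09 (adjusted p = 0.196) and -0.30 after the correction. The phosphatase gene *Dusp1* had 1003, 1292, 1184, 1140.0 and 801 in WT-Flx and 1109, 1795, 1561 and 1252 in WT-Veh, a difference of -0.39 ± 0.16 and -0.38 after the correction.

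The medians of nuclear-encoded genes of protein synthesis and respiration were nearly the same before and after the correction. Of 78 cytosolic ribosomal protein genes, 1 was higher and 21 were lower at an unadjusted p under 0.05, beside 8.81% and 12.4% of all genes, with a median of -0.13. After the correction 0 were higher and 22 lower, beside 4.18% and 5.28% of all genes, and the median was again -0.13. Of 76 nuclear-encoded subunits of oxidative phosphorylation, 3 were higher and 16 lower, and 1 and 18 after the correction, with medians of -0.13 and -0.12. *Cox4i1*, a subunit of cytochrome c oxidase, had 12150, 11576, 11274, 13006 and 13426 in WT-Flx and 14058, 17737, 16239 and 13444 in WT-Veh. The fluoxetine libraries were lower with no overlap, though WT-Veh replicate 5 was next to the highest of them, and the difference was -0.32 ± 0.09 (adjusted p = 0.196) and -0.20 after the correction. *Rpl14*, a protein of the large ribosomal subunit, had 3795, 3484, 3311, 3665 and 4004 in WT-Flx and 4166, 4970, 4842 and 3943 in WT-Veh, a difference of -0.29 ± 0.09 and -0.23 after the correction. Against WT-Veh replicates 1 and 5 alone, where 1.73% of all genes were higher and 2.83% lower at an unadjusted p under 0.05, 0 ribosomal genes were higher and 1 lower, with a median of -0.02, and 2 respiratory genes were higher and 1 lower, with a median of 0.01. The 15 transcripts of the mitochondrial genome, of low GC content, had a median of -0.01 and 0 at an unadjusted p under 0.05, which became -0.16 with 6 lower after the correction.

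Astrocyte markers had 0 higher and 8 lower of 30 (8.81% and 12.4% of all genes), with a median of -0.18, and 0 and 4 after the correction (4.18% and 5.28%), with a median of -0.10. Their mean log2 deviation was -0.20, -0.15 and -0.09 in the libraries of low cerebellar markers (WT-Flx replicates 2 and 5 and WT-Veh replicate 1), but it was also -0.11 in WT-Flx replicate 3, whose cerebellar markers were not low. With the cerebellar marker level as a covariate the median difference was -0.09, with 1 higher and 8 lower (6.09% and 11.2% of all genes). The astrocyte median was -0.03 against WT-Veh replicates 1 and 5 alone, with 0 higher and 1 lower (1.73% and 2.83% of all genes). It was -0.04 with the GC slope of each library as a covariate, again with 0 higher and 1 lower. Most of the lower astrocyte calls thus needed WT-Veh replicates 3 and 4. Oligodendrocyte, microglia and endothelial markers had medians of -0.13, -0.03 and -0.09, which were -0.03, -0.02 and -0.06 after the correction. At an unadjusted p under 0.05, 5 of 38 oligodendrocyte markers were higher and 3 lower. Of 29 microglia markers 2 were higher and 2 lower, and of 27 endothelial markers 1 and 4. After the correction these counts were 1 and 0, 0 and 0, and 0 and 1. With the cerebellar marker level as a covariate they were 9 and 1, 0 and 3, and 0 and 4. Striatal projection neuron markers had a median of 0.30 with 3 of 14 higher and 0 lower (8.81% and 12.4% of all genes), and 0.45 with 5 higher and 0 lower after the correction (4.18% and 5.28%). The phosphodiesterase gene *Pde10a*, one of these, had 10390, 11336, 10227, 5630 and 12005 in WT-Flx and 8371, 5078, 5042 and 6380 in WT-Veh, a difference of 0.66 ± 0.22 (adjusted p = 0.196) and 0.69 after the correction. WT-Flx replicate 4 lay among the vehicle libraries. With the cerebellar marker level as a covariate the median of the list was 0.05 with 2 higher (6.09% of all genes). With both this covariate and the correction it was 0.24 with 5 higher (3.51% of all genes). Cerebellar markers had a median of -0.66 and 0 of 20 past an unadjusted p of 0.05.

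Interferon response and antigen presentation genes had a median of 0.00, but 6 of 32 were higher and 0 lower at an unadjusted p under 0.05, against 8.81% and 12.4% of all genes, and 6 and 0 again after the correction (4.18% and 5.28%). *Ifit3*, an interferon-induced RNA-binding protein gene, had 300.2, 336, 354, 360.1 and 327 in WT-Flx and 284, 230.4, 254 and 246 in WT-Veh, with no overlap, a difference of 0.40 ± 0.10 (adjusted p = 0.196) and 0.29 after the correction. *Xaf1*, another interferon-induced gene, had 135, 120.5, 108, 106 and 114 in WT-Flx and 91.6, 90.9, 54.5 and 84.4 in WT-Veh, again with no overlap, a difference of 0.56 ± 0.17 (adjusted p = 0.196) and 0.45 after the correction. For *Ifit3* the left-out WT-Veh replicate 2 had 210.1, below all 9 libraries, whereas for *Xaf1* it had 122, within the fluoxetine range. Against WT-Veh replicates 1 and 5 alone, 5 members were higher and 0 lower, beside 1.73% and 2.83% of all genes.

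Lists of synaptic, chromatin and autism risk genes had fewer members past an unadjusted p of 0.05 after the correction, and so had all genes (8.81% higher and 12.4% lower before it, 4.18% and 5.28% after it). Of 104 autism risk genes, 23 were higher and 21 lower at an unadjusted p under 0.05, and 13 and 1 after the correction, where the higher share was above and the lower share below that of all genes. Higher members did not outnumber lower ones against WT-Veh replicates 1 and 5 alone, with 4 higher and 5 lower (1.73% and 2.83% of all genes). These counts were 5 and 3 with the GC slope as a covariate, a fit with 524 such genes in all. They were 11 and 5 with both the correction and the cerebellar marker level as a covariate. Of 114 chromatin regulators, 13 were higher and 24 lower, and 8 and 5 after it. Of 52 genes of presynaptic release, 5 were higher and 15 lower, and 3 and 1 after it. Of 45 neurexins, neuroligins and adhesion partners, 14 were higher and 7 lower, and 6 and 1 after it. Of 38 splicing factors, 10 were higher and 2 lower, and 5 and 2 after it. *Nrxn3*, a presynaptic adhesion molecule, had 7219, 8102, 8374, 7410 and 7728 in WT-Flx and 6865, 5669, 6114 and 6673 in WT-Veh, with no overlap, a difference of 0.30 ± 0.08 (adjusted p = 0.196) and 0.28 after the correction. *Kmt2e*, a chromatin reader and autism risk gene, had 4452, 4368, 4613, 4486 and 4066 in WT-Flx and 3951, 2888, 3077 and 3818 in WT-Veh, a difference of 0.37 ± 0.10 and 0.24 after the correction. The autism risk genes *Phf21a* and *Qrich1* differed by 0.35 ± 0.11 and 0.22 ± 0.07, and by 0.34 and 0.22 after the correction.

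**Figure D5:**
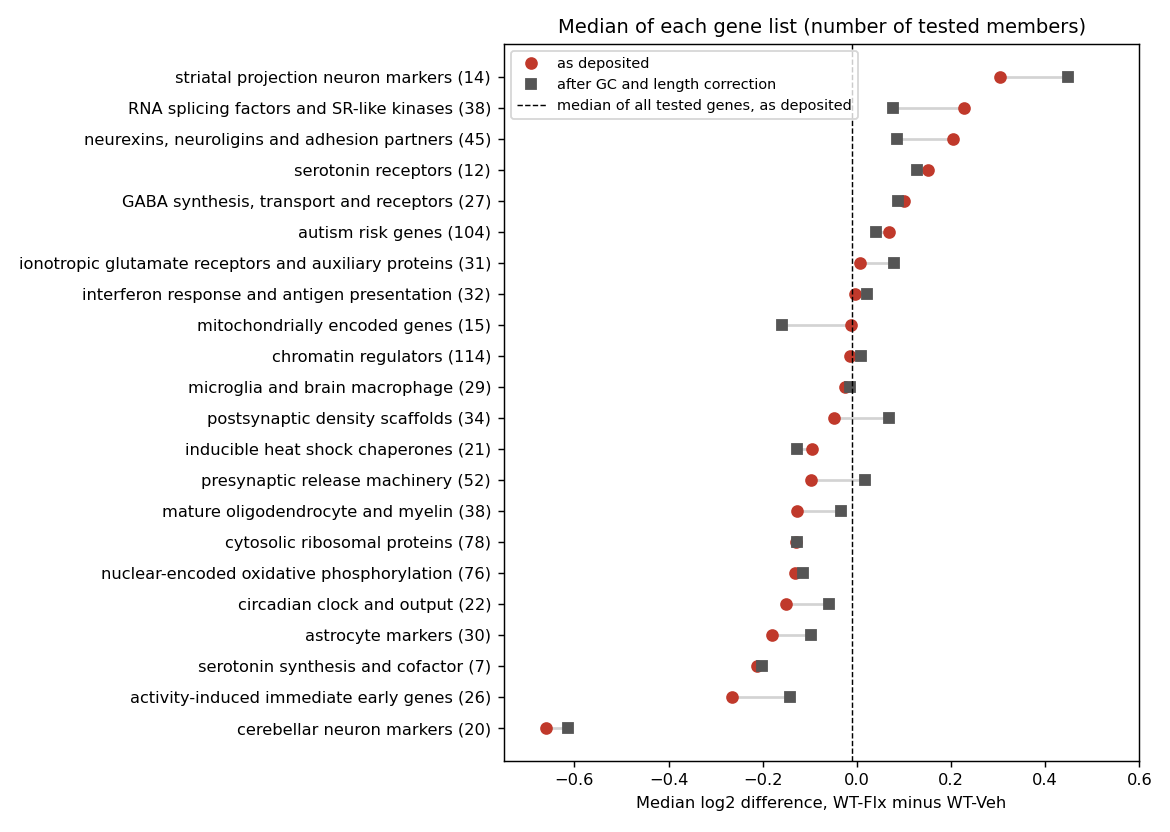
Median log2 difference between WT-Flx and WT-Veh for 22 of the 51 gene lists, as deposited (circles) and after the GC and length correction (squares), with the number of tested members in brackets and the median of all genes dashed. Ribosomal, respiratory and serotonin synthesis lists barely move with the correction, whereas splicing factors go from 0.23 to 0.08 and immediate early genes from -0.27 to -0.14.

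Whether the wildtype difference was unlike that in HT mice was tested as an interaction over 18 libraries, with 5 of HT-Flx and 4 of HT-Veh added. HT-Veh replicate 2 was left out because its *Arid1b* value of 3361 was that of a wildtype, while the other HT libraries had 1973 to 2616. Of 17789 genes, 0 passed by limma (0%), the smallest adjusted p was 0.0576, and 7312 (41.1%) had an unadjusted p under 0.05. The slopes on GC content were 0.56 to 0.97 in HT-Flx, and in the 4 HT-Veh libraries used they were 0.69, 0.46, -0.15 and -0.08. After the correction 0 genes passed, the smallest adjusted p was 0.174 and 3634 (20.4%) had an unadjusted p under 0.05. With the GC slope of each library as a covariate instead, 762 of 17789 genes had an unadjusted p under 0.05 by limma. The smallest adjusted p was then 0.956, and 0 genes passed. Without the correction or this covariate, the count of calls turned on single libraries. In that fit 7171 genes passed without HT-Veh replicate 1, 5538 without HT-Veh replicate 3, 3700 without WT-Veh replicate 1 and 2306 without HT-Flx replicate 4. With both vehicle libraries numbered 2 included under their labels, although the *Arid1b* value of each goes against its label, 4852 passed. For *Hspa1a* the wildtype difference minus the HT difference was -0.98 (adjusted p = 0.0576), and -0.32 after the correction (adjusted p = 0.257). For *Slit2* it was 0.80 (adjusted p = 0.0617) and 0.50 after the correction (adjusted p = 0.174), and for *Dnah3* 1.20 (adjusted p = 0.133) and 0.91 after it (adjusted p = 0.300).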

How the data were processed

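The authors prepared poly-A RNA of whole brain with TruSeq kits, sequenced it paired-end, quantified it with Salmon 1.1.0 against GRCm38 with GC bias correction and normalized it with DESeq2 1.30.1 (versions as in the submitters' processing notes). The deposited signal is thus a normalized read count per gene and not whole reads; depth is unknown, no counting interval can be given, and the number of mice limits the precision. The library labelled WT-Veh replicate 2 was left out for its *Arid1b* value, which is that of a heterozygote; it kept its label as an alternative. Genes with a mean of at least 10 over the 9 libraries were fitted on log2(value + 1) with limma 3.58.1 in R 4.3.3 (intensity trend, no block), with Benjamini-Hochberg adjustment at 0.05. A fold change on this scale understates the change of low genes. Single values were compared with two-sided exact permutation tests (scipy). GC content and length are means over GENCODE M21 transcripts, and 99.9% of the 19737 identifiers matched. The fits were tested on simulated data with known changes. The comparison and the 51 gene lists were chosen with earlier results of these data known. Named by rule were *Arid1b*, *Hdac4*, *Mef2a*, *Arc*, the serotonin lists, genes past the threshold (none) and the 3 most abundant red blood cell, choroid plexus and pituitary markers; some genes of this rule are not reported here. All other genes were chosen after their values were seen, by smallest p or by their pattern.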

Additional observations from a re-analysis of the deposited data

Results flagged for a closer look

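In 138 sets of values (genes named for the comparison, summed markers and slopes, each within WT-Flx or WT-Veh), the highest or lowest library stood apart by Dixon's criterion in 10, or 7.25%, where chance gives about 1 in 20. For growth hormone (*Gh*) WT-Flx replicate 4 had 1379 against a group median of 37.1, and WT-Veh replicate 3 had 599.6 against a median of 19.4. For *Pomc* WT-Veh replicate 3 had 207.9 against a median of 89.7, and the summed pituitary markers of WT-Flx replicate 4 were 7888 against 5364. The summed cerebellar neuron markers of WT-Veh replicate 1 were 46821 against a median of 109810. For *Htr7* WT-Flx replicate 3 had 477.7 against a median of 407. For *Aanat* WT-Flx replicate 1 had 25.9 against 14.2. For *2810429I04Rik* WT-Flx replicate 3 had 122 against 89.5, and for *Frs3* WT-Flx replicate 2 had 654 against 759. For *Hdac4* WT-Veh replicate 1 had 2234 against 2846.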

How the results depend on the processing

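The count of genes higher in WT-Flx was 0 under all 25 alternatives, and the count of genes lower was 0 under 22 of them. It was 1 with the replicate block and 1 with the GC and length correction with the replicate block (*Pisd-ps1* both times), and between 0 and 1 when each library was left out (*Gm9762* without WT-Flx replicate 4). The counts at an unadjusted p under 0.05 ran from 524 with the GC slope as a covariate to 5918 without WT-Veh replicate 1, and were 2122 without WT-Veh replicate 3 and 816 against WT-Veh replicates 1 and 5 alone, an alternative added after the slopes were seen. The cerebellar marker level as a covariate, also added later, left 3086. The difference in slope on GC content kept its direction in every alternative, and its exact permutation p was under 0.05 except with the replicate block. There the 4 paired differences averaged -0.25 (exact p = 0.125, the smallest 4 pairs allow). The difference in slope lay between -0.32 and -0.16 when each library was left out. With groups that did not overlap, leaving out a library could not change its direction or its side of the threshold. The interaction passed in 6 of 31 alternatives, with 3076 genes at a mean of at least 100, 4852 with both vehicle libraries numbered 2 included, and 0 to 7171 when each library was left out; the cause was not tested. Same-numbered libraries of the 2 groups correlated at -0.18, 0.01, 0.29 and -0.21 in their deviations from the group means. Libraries of unlike number correlated at -0.43 to 0.42. The labels do not say what the numbers stand for, and whether they pair the mice was not tested. Of 131 genes examined singly, 92 kept their sign under all 25 alternatives and 12 changed it after the correction. Unknown read depth limits what low genes such as *Tph1* can show.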

Other observations

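Some further gene groups are given here, with no member past the adjusted threshold. Of all genes, 8.81% were higher and 12.4% lower at an unadjusted p under 0.05, and 4.18% and 5.28% after the GC and length correction, with a median log2 difference of -0.01 before it. Of 22 circadian clock and output genes, 1 was higher and 7 were lower in WT-Flx at an unadjusted p under 0.05, with a median log2 difference of -0.15, and 1 and 1 after the GC and length correction, with a median of -0.06. Of 26 genes of the glucocorticoid receptor and its responses, 1 was higher and 3 were lower, with a median of -0.21, and 1 and 2 after the correction, with a median of -0.08. Of 27 genes of GABA synthesis, transport and reception, 9 were higher and 5 lower, with a median of 0.10, and 2 and 1 after it, with a median of 0.09. Of 18 catecholamine genes, 1 was higher and 2 were lower, with a median of -0.18, and 1 and 0 after it, with a median of 0.01. Of 43 potassium channel genes, 5 were higher and 5 lower, and 3 and 3 after it.

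A pair of genes chosen after their values were seen had values that switched between libraries. *Gm9762* was listed at 0 in WT-Flx replicates 1, 2, 3 and 5 and at 45.8 normalized counts in WT-Flx replicate 4, and had 51.1, 31.5, 104 and 40.7 in WT-Veh replicates 1, 3, 4 and 5. *Pisd-ps1* had 3060 in WT-Flx replicate 2 and 762, 471, 391 and 386 in the other WT-Flx libraries, and 2620, 2033, 1801 and 831 in WT-Veh. By its name *Pisd-ps1* is a pseudogene of *Pisd*, and whether reads of both copies can be told apart was not tested.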
